A study of Homo sapiens with 24 samples.

Results

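The 55 genes described here are induced by type I interferon in human cells. They were picked by symbol, with earlier results of these data known. All 55 symbols were found among the 60675 Ensembl genes counted in each library. RNA was sequenced from MDA-MB-231 and MDA-MB-436, established human lines of triple-negative breast cancer, in 24 libraries that fall into 8 groups of 3. In each line 1 group was labelled non-targeting shRNA, 1 was labelled MDM2 shRNA, 1 was labelled DMSO (the vehicle) and 1 was labelled PROTAC (YX-2-30). The series asks what changes in these cells when MDM2 is lost, so each treatment was compared with its own control within a line: MDM2 shRNA with non-targeting shRNA, and PROTAC with DMSO. All groups of a line share that line's background, and no allele is engineered according to the labels. The labels give neither the hairpin sequences nor the dose and duration of the PROTAC. Whether the libraries of 1 group come from separate cultures is not stated either, so p-values measure the spread between these libraries, which may be technical.

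MDM2 is a ubiquitin ligase that marks other proteins for destruction, an shRNA is a hairpin that lowers an mRNA, and a PROTAC is a molecule that brings a target protein to a ubiquitin ligase. Type I interferons bind the receptor IFNAR1 and IFNAR2, whose kinases JAK1 and TYK2 phosphorylate STAT proteins, STAT2 among them. STAT2 joins IRF9 in a complex that binds interferon-stimulated response elements and switches on genes such as the 55, many of which sense viral RNA, block translation or restrict viral entry. Tumour cells can hold part of this programme on without infection, and the same genes also respond to type III interferon and to IRF1 or IRF3 directly.

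Library totals ran from 33413988 to 174744841 counts. Values below are CPM as edgeR gives it, a gene's counts relative to the library size scaled by TMM, listed in the order of library 1, 2 and 3. A log2 change is treated minus control with its standard error from edgeR's quasi-likelihood fit over the 12 libraries of a line. The adjusted p is Benjamini-Hochberg over all genes tested in that line (20675 for MDA-MB-231, 22663 for MDA-MB-436), and a gene rose or fell where it was under 0.05. MDM2 mRNA did not pass as lower in the libraries labelled MDM2 shRNA: its level went from 17.7 ± 5.80 to 25.98 ± 3.77 CPM for MDA-MB-231 (mean ± SD, n = 3; log2 change 0.55 ± 0.24, adjusted p = 0.137) and from 25.4 ± 4.52 to 23.7 ± 7.68 CPM for MDA-MB-436 (log2 change -0.11 ± 0.22, adjusted p = 0.78). The PROTAC acts on the protein, so its mRNA, from 18.5 ± 4.78 to 22.2 ± 2.01 CPM in MDA-MB-231 and from 36.0 ± 5.55 to 23.5 ± 1.71 CPM in MDA-MB-436 (adjusted p = 0.513 and 0.0573), does not check that label. The controls of the hairpin and PROTAC experiments were compared too: DMSO against non-targeting shRNA called 0 genes in MDA-MB-231 by edgeR (0%), with 4.37% at an unadjusted p under 0.05, and 4 genes in MDA-MB-436 (0.0176%), with 11.4% at an unadjusted p under 0.05. One library, MDA-MB-436 PROTAC 3, stood apart with the lowest total and a mean correlation with the other libraries of its group (log2 CPM centred per gene over the line) of 0.01, against 0.16 and 0.13 for libraries 1 and 2.

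The labelled cell type, epithelial, was checked on marker genes. Of 7 epithelial and line markers, KRT8 and KRT18, keratins of simple epithelium, were between 202.6 and 652.7 CPM in every library, and EPCAM was between 3.41 and 20.6 CPM. The junction protein CDH1 was at most 0.667 CPM and the basal keratin KRT5 at most 0.753 CPM, while KRT19 was at least 322.3 CPM in MDA-MB-231 and at most 1.43 CPM in MDA-MB-436. VIM, a filament of mesenchymal cells, was at least 635.7 CPM and fell in all 4 comparisons (log2 changes -0.84, -0.70, -0.24 and -0.57). In MDA-MB-436 KRT8 fell (log2 changes -1.02 ± 0.12 and -0.91 ± 0.12), KRT18 fell (-0.81 ± 0.07 and -0.73 ± 0.07) and EPCAM rose (0.58 ± 0.14 and 0.60 ± 0.14). Under shRNA there CDH1 and KRT19 also rose, from low levels (log2 changes 3.48 and 2.04, edgeR adjusted p = 0.0187 and 0.0342). That made 3 rises and 3 falls among the 7 markers. Neither CDH1 nor KRT19 passed under the PROTAC in MDA-MB-436, while KRT19 fell under it in MDA-MB-231 (-0.14, adjusted p = 0.0326). ESR1 and PGR were at most 0.554 CPM, while ERBB2 mRNA was present at 39.4 to 88.4 CPM. ERBB2 fell in both comparisons of MDA-MB-436 (log2 changes -0.45 and -0.43) and rose under shRNA in MDA-MB-231 (0.19). The T and B cell markers CD3E and MS4A1 and the fibroblast marker DCN were at or near 0. Of the other fibroblast markers, LUM and COL1A2 were at most 0.445 CPM. COL1A1 was 14.1 to 30.9 CPM in MDA-MB-231 and rose in both comparisons there (log2 changes 0.98 and 0.81). COL1A1 passed in neither comparison of MDA-MB-436. PDGFRB was at most 9.12 CPM in MDA-MB-231 and 4.05 CPM in MDA-MB-436. PDGFRB rose in all 4 comparisons (log2 changes 0.829, 0.801, 2.02 and 1.495). PTPRC, a leukocyte marker, was 2.76 to 5.32 CPM in MDA-MB-231 and fell in both comparisons there (adjusted p = 0.0423 and 0.0348). PTPRC was at most 0.22 CPM in MDA-MB-436. Of 4 endothelial markers, KDR was 6.68 to 9.304 CPM in MDA-MB-231, without passing there. KDR fell in both comparisons of MDA-MB-436 (adjusted p = 0.031 and 0.00512), and no other endothelial marker passed. In MDA-MB-436 the summed level of 7 leukocyte markers was 9.60 to 17.1 CPM in the control libraries and 24.9 to 30.1 CPM in the treated ones; of the list, ITGAM rose (log2 changes 3.33 and 3.21), CD14 fell (-1.02 and -0.76) and LYZ rose under the PROTAC, from 0 in each DMSO library to 0.278, 0.156 and 0.831 CPM (adjusted p = 0.0278). In MDA-MB-231 that sum was 4.33 to 7.03 CPM in all groups, and the fibroblast sum of 5 markers went from 18.2 to 22.5 CPM in controls to 34.4 to 39.4 CPM in treated libraries. In MDA-MB-436 the fibroblast sum was 4.79 to 6.77 CPM in controls and 6.87 to 10.4 CPM in treated libraries. The part of these markers in the results below was not tested. In bulk RNA, fewer cells with a transcript and less of it per cell cannot be told apart.

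Most of the interferon genes rose in MDA-MB-231 and none fell. Of the 50 members with enough counts to test, 28 rose, 0 fell and 22 did not pass under MDM2 shRNA, where 22.7% of all genes tested were called, 11.1% as higher and 11.6% as lower. The PROTAC brought 30 rises and 0 falls, with 20 members missing the threshold, against 22.6% of all genes (11.1% higher and 11.5% lower). Since the members were chosen with earlier results of these data known, the contrast with all genes is a description. Falls were also absent at an unadjusted p under 0.05 for the shRNA, where 33 members were higher and 0 lower by edgeR, while for the PROTAC 32 were higher and 1 was lower. The share of all genes at that unadjusted threshold was not computed. DESeq2 and limma voom called 0 members lower in either comparison. The median log2 change over the tested members was 0.47 and 0.45, beside 0.01 and -0.01 over all genes tested, and the members that rose did so by 0.12 to 1.41 and by 0.19 to 1.60. In every one of these 28 and 30 rises the control and treated libraries did not overlap. A call with 3 libraries per group makes such separation likely. Its share among all called genes was not computed, so it adds no separate support.

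MDA-MB-436 was mixed. Of 50 members tested, 14 rose, 6 fell and 30 did not pass under MDM2 shRNA, where 30.4% of all genes were called (16% higher and 14.4% lower). The PROTAC brought 12 rises and 7 falls, with 31 members missing the threshold, against 32.4% of all genes (17.3% higher and 15.1% lower). Rises made up 28% and 24% of the tested members in MDA-MB-436, against 56% and 60% in MDA-MB-231, and the share of falls in MDA-MB-436, 12% and 14%, was near that of all genes. The median change of the members was 0.10 and 0.09, beside 0.04 for all genes in both comparisons. The split between rises and falls in MDA-MB-436 moved with the scaling: with library totals and no TMM, which shifts the median of all genes up by 0.18 and 0.17, 22 rose and 3 fell under shRNA and 19 rose and 4 fell under the PROTAC. In MDA-MB-231 the same change gave 31 and 32 rises with 0 falls. All genes moved that way too: without scaling, 72.8% and 70.9% of all called genes were higher in MDA-MB-436. In MDA-MB-231 the shares were 68.0% and 65.6%.

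**Figure D1:**
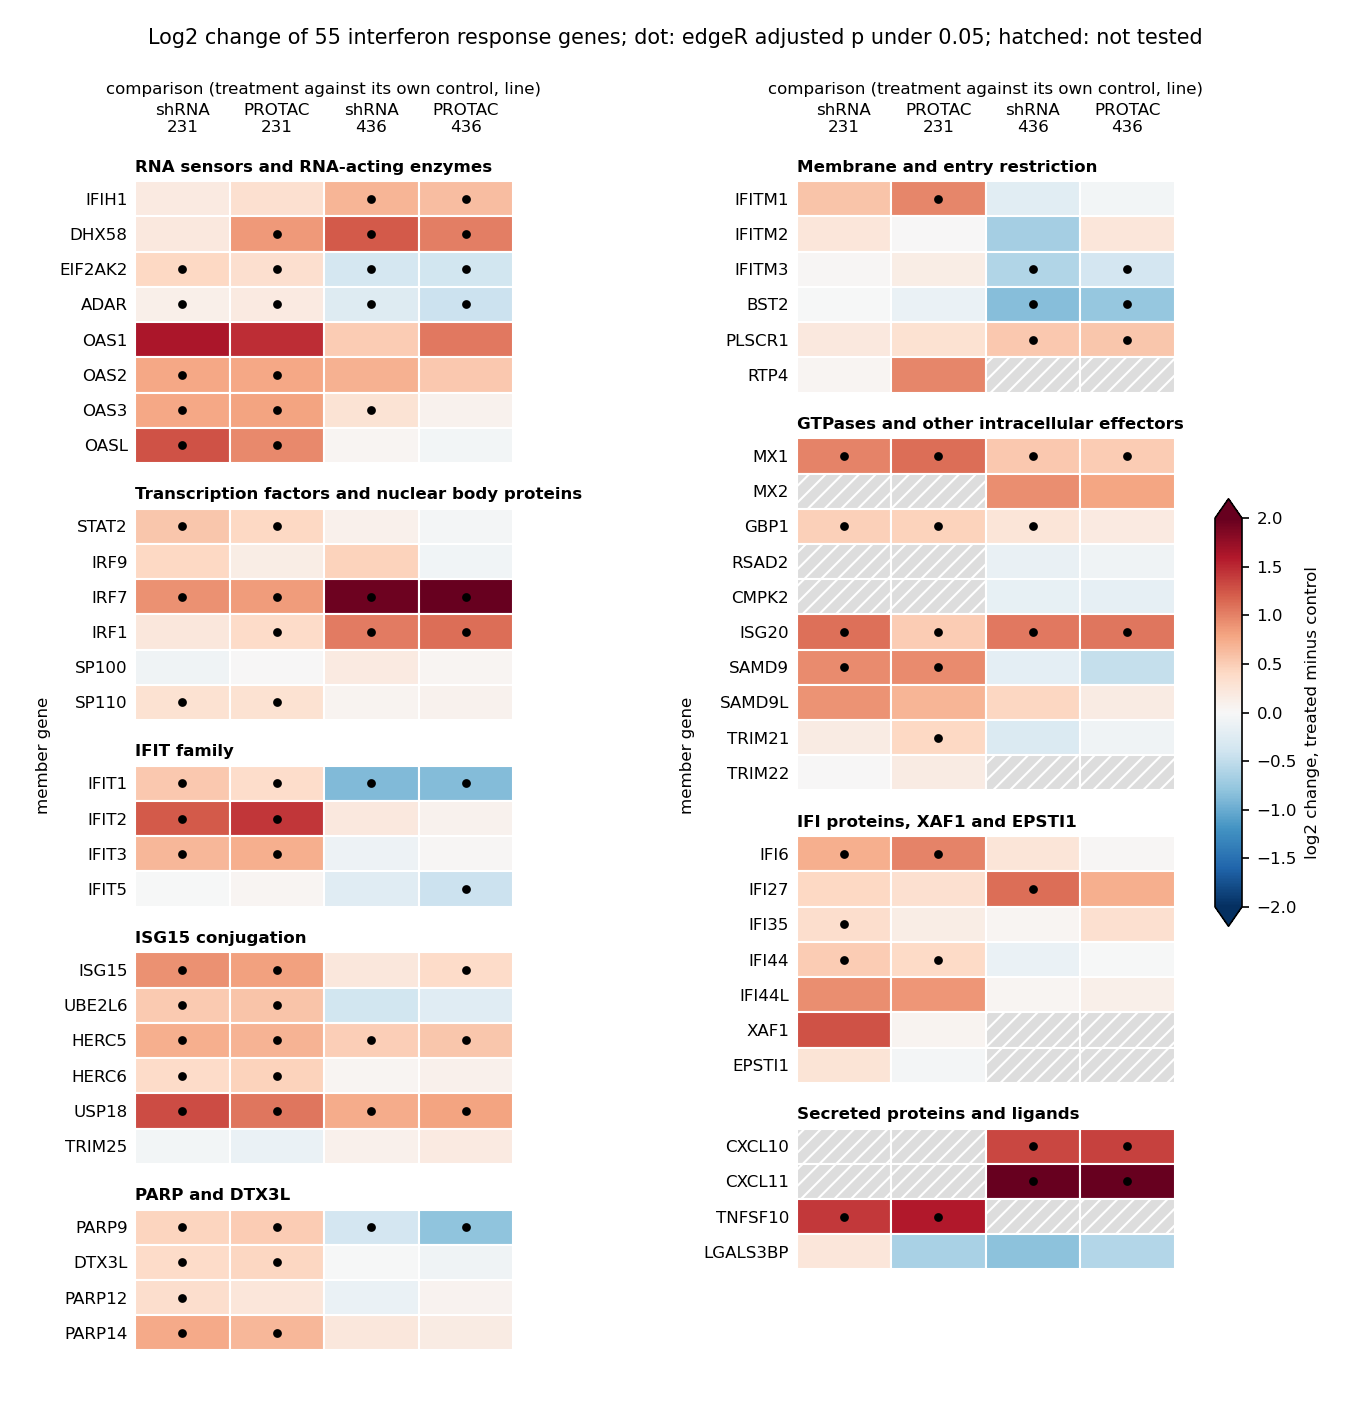
Log2 change (treated minus control) of the 55 members, by role, in the 4 comparisons; a dot marks an adjusted p under 0.05 by edgeR and hatching marks members not tested in that line. The 2 MDA-MB-231 columns hold 28 and 30 dots, all on rises, and the MDA-MB-436 columns hold dots on 14 and 12 rises and on 6 and 7 falls.

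Across the 4 comparisons, 5 members rose everywhere: IRF7, HERC5, USP18, MX1 and ISG20. Another 4, EIF2AK2, ADAR, IFIT1 and PARP9, rose in both comparisons of MDA-MB-231 and fell in both of MDA-MB-436. A further 13 rose in both comparisons of MDA-MB-231 and passed in neither of MDA-MB-436. BST2 and IFITM3 fell, and IFIH1 and PLSCR1 rose, in both comparisons of MDA-MB-436 with no call in MDA-MB-231. Tested everywhere and called nowhere were 8 members: OAS1, IRF9, SP100, TRIM25, IFITM2, SAMD9L, IFI44L and LGALS3BP. How often all genes show each of these patterns was not computed. The counts therefore describe the members and do not set them apart from other genes. The members that failed the filter on low counts were MX2, RSAD2, CMPK2, CXCL10 and CXCL11 in MDA-MB-231 and RTP4, TRIM22, XAF1, EPSTI1 and TNFSF10 in MDA-MB-436, so 45 were tested in both lines.

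Promoter sequences show the element through which interferon reaches many of these genes. RefSeq promoters (GRCh38.p14) were at hand for 46 of the 55 members; those of TRIM22, DHX58, USP18, OAS2, MX2, IRF7, IFITM2, OASL and IFIT2 were not used here. The letters GAAANNGAAA, the core of the interferon-stimulated response element with any base at N, were searched on either strand in the 250 bases before the start, overlapping matches counted. They occurred in 28 of the 46 members (60.9%) and in 1014 of 27305 genes with a promoter sequence (3.71%). The 4 stretches below belong to members with unlike behaviour: ISG15 and HERC5 rose in both lines in at least 1 comparison each, SAMD9 rose in MDA-MB-231 alone, and IFIT1 rose in MDA-MB-231 and fell in MDA-MB-436. Each is 150 bases, 5′ to 3′ on the gene's strand, and capitals mark matches on either strand.
ISG15 (chr1:1013273-1013422, plus strand): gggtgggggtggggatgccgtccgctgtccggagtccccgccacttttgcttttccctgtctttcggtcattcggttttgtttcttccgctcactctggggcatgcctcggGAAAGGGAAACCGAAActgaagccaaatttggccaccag
HERC5 (chr4:88456967-88457116, plus strand): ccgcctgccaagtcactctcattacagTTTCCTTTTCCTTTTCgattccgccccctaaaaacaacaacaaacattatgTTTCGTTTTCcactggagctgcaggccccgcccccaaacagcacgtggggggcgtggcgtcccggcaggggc
SAMD9 (chr7:93118024-93118173, minus strand): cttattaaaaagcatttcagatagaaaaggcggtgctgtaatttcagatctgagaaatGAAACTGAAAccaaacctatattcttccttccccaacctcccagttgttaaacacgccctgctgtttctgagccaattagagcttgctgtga
IFIT1 (chr10:89392396-89392545, plus strand): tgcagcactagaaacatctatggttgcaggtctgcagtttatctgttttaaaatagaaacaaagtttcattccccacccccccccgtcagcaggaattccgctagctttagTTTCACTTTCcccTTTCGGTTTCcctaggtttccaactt
The matches did not sort the members by response. The letters were in 14 of 21 members that rose in both comparisons of MDA-MB-231 and in 10 of 16 that were tested and called in neither. In MDA-MB-436 they were in 6 of 8 that rose in both comparisons and in 5 of 7 that fell in either. ADAR, EIF2AK2, IRF1, STAT2 and UBE2L6 had no match of these letters in this window.

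Transcription factors carry the signal to the other members. Of 6 members in the group, 3 rose in MDA-MB-231 under shRNA (IRF7, STAT2, SP110) and 4 under the PROTAC (the same 3 and IRF1), while in MDA-MB-436 IRF7 and IRF1 rose under both treatments and the other 4 did not pass. Of all genes tested, 11.1% rose in each comparison of MDA-MB-231, and 16% and 17.3% rose in MDA-MB-436. The shares that fell were 11.6% and 11.5%, and 14.4% and 15.1%. The same shares apply to each role group below, and a small count does not set a small group apart. IRF7 (ENSG00000185507, chromosome 11, 612553 to 615999) drives the later wave of interferon gene transcription. IRF7 stood at 17.5, 13.8 and 18.2 CPM under non-targeting shRNA in MDA-MB-231 and at 29.8, 32.3 and 30.8 CPM in the libraries labelled MDM2 shRNA (log2 change 0.91 ± 0.10, adjusted p = 6.64e-05). DMSO gave 17.7, 16.3 and 17.8 CPM and PROTAC 32.2, 30.7 and 30.0 CPM (log2 change 0.84 ± 0.10, adjusted p = 0.000118). The treated libraries were all higher, without overlap. MDA-MB-436 held less IRF7 at the start, 10.5, 9.17 and 10.2 CPM, and more after, 39.6, 36.8 and 40.5 CPM (log2 change 1.97 ± 0.12, adjusted p = 5.82e-07). Under the PROTAC it went from 6.85, 8.74 and 8.65 CPM to 35.6, 38.4 and 31.5 CPM (log2 change 2.12 ± 0.12, adjusted p = 3.58e-07). Every treated library of MDA-MB-436 was above every control library of either line, and the rise was larger than in MDA-MB-231 by 1.04 ± 0.17 and 1.28 ± 0.17 on the log2 scale (adjusted p = 0.00011 and 1.01e-05).

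IRF1 (ENSG00000125347, chromosome 5, 132481609 to 132490798), a factor that interferon gamma induces too, changed more in MDA-MB-436. IRF1 read 32.8, 31.3 and 31.9 CPM under non-targeting shRNA and 41.4, 32.9 and 37.7 CPM under MDM2 shRNA in MDA-MB-231 (log2 change 0.22 ± 0.08, adjusted p = 0.0704). DMSO gave 32.4, 29.6 and 31.1 CPM and PROTAC 39.5, 40.3 and 41.3 CPM (log2 change 0.38 ± 0.08, adjusted p = 0.00529). Only the PROTAC comparison passed in MDA-MB-231, and the shRNA comparison passed without MDM2 shRNA library 2 (adjusted p = 0.011). In MDA-MB-436 IRF1 was at 38.8, 42.3 and 43.3 CPM against 87.3, 83.8 and 84.0 CPM for the shRNA (log2 change 1.04 ± 0.09, adjusted p = 8.24e-06). The PROTAC moved it from 36.2, 43.8 and 34.7 CPM to 84.6, 86.1 and 78.0 CPM (log2 change 1.12 ± 0.09, adjusted p = 4.59e-06). All 6 treated libraries of MDA-MB-436 were well above their controls, and the difference between lines was 0.80 ± 0.13 and 0.74 ± 0.13 (adjusted p = 0.000152 and 0.000279). Exons of IRF1 overlap an antisense transcript, and since no source used here says that counting kept strand, reads of both cannot be told apart. Exons of other genes reported here overlap another gene as well, among them MDM2, EIF2AK2, IFIT2, ISG15, MX1 and CGAS.

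STAT2, a subunit of the interferon-stimulated complex, rose in MDA-MB-231 from 38.2 ± 1.03 to 55.8 ± 1.36 CPM and from 36.5 ± 2.41 to 48.5 ± 6.04 CPM (log2 changes 0.55 ± 0.08 and 0.41 ± 0.08). In MDA-MB-436 its changes were 0.10 ± 0.08 and -0.04 ± 0.08 (adjusted p = 0.402 and 0.736). IRF9, the DNA-binding member of that complex, passed in no comparison, with changes of 0.42, 0.15, 0.46 and -0.07, but did pass in MDA-MB-231 under shRNA when MDM2 shRNA library 2 was left out (adjusted p = 0.0281). SP110, a nuclear body protein, rose by 0.30 and 0.31 in MDA-MB-231, a call that was lost when any of 5 libraries was left out for the shRNA and any of 4 for the PROTAC (adjusted p up to 0.148 and 0.125). SP100, which organises nuclear bodies, stayed within -0.09 and 0.18 in the 4 comparisons and passed in none.

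Sensors of double-stranded RNA and the enzymes that act on it split by line. Of 8 members, 5 rose under shRNA and 6 under the PROTAC in MDA-MB-231, where 11.1% of all genes rose in each comparison. Of those in MDA-MB-436, 3 rose and 2 fell under shRNA, and 2 rose and 2 fell under the PROTAC. Of all genes tested in that line, 16% and 17.3% rose, and 14.4% and 15.1% fell. EIF2AK2 (ENSG00000055332, chromosome 2, 37099210 to 37157065) encodes PKR, the kinase that stops translation on sensing double-stranded RNA. EIF2AK2 measured 113, 120 and 114 CPM and 149, 152 and 162 CPM for non-targeting and MDM2 shRNA in MDA-MB-231 (log2 change 0.41 ± 0.05, adjusted p = 0.000192). With DMSO it was 116, 127 and 125 CPM and with PROTAC 163, 153 and 149 CPM (log2 change 0.33 ± 0.05, adjusted p = 0.000868). All treated MDA-MB-231 libraries were above all controls. MDA-MB-436 began higher, at 225, 224 and 219 CPM, and was at 169, 180 and 175 CPM in the libraries labelled MDM2 shRNA (log2 change -0.35 ± 0.08, adjusted p = 0.00602). DMSO libraries read 253, 228 and 253 CPM and PROTAC libraries 167, 183 and 211 CPM (log2 change -0.39 ± 0.08, adjusted p = 0.00296). Here every treated library was below every control, yet without TMM scaling neither fall passed (adjusted p = 0.148 and 0.0604). The lines differed by -0.78 ± 0.09 and -0.72 ± 0.09 (adjusted p = 2.19e-06 and 4.43e-06).

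ADAR (ENSG00000160710, chromosome 1, 154582057 to 154628013) edits adenosine in double-stranded RNA and so keeps the cell's own transcripts from being sensed. ADAR was at 223, 214 and 217 CPM under non-targeting shRNA and 239, 228 and 246 CPM under MDM2 shRNA in MDA-MB-231 (log2 change 0.12 ± 0.04, adjusted p = 0.0364). DMSO gave 215, 211 and 215 CPM and PROTAC 247, 242 and 240 CPM (log2 change 0.19 ± 0.04, adjusted p = 0.00404). These small rises did not overlap with the controls, but the shRNA call was lost when any of 5 of the 6 libraries was left out (all but MDM2 shRNA library 2; adjusted p up to 0.179), while the PROTAC call passed in all 6 cases. MDA-MB-436 read 427, 434 and 431 CPM and 350, 357 and 372 CPM for the shRNA pair (log2 change -0.26 ± 0.07, adjusted p = 0.0149). The PROTAC pair there was 485, 452 and 489 CPM and 318, 389 and 350 CPM (log2 change -0.43 ± 0.07, adjusted p = 0.000623). The libraries of each MDA-MB-436 pair were apart, with treated ones lower; the shRNA fall was lost without MDM2 shRNA library 1 (adjusted p = 0.0535) and without scaling (0.401), and the PROTAC fall passed in both cases. The difference between lines was -0.40 ± 0.09 and -0.61 ± 0.09 (adjusted p = 0.00212 and 2.61e-05).

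DHX58 (ENSG00000108771, chromosome 17, 42101404 to 42112733) encodes LGP2, which modulates the sensors RIG-I and MDA5. DHX58 showed 2.87, 2.52 and 1.29 CPM and 2.68, 2.25 and 2.82 CPM for the shRNA pair of MDA-MB-231 (log2 change 0.21 ± 0.27, adjusted p = 0.649). Under DMSO it was 1.56, 1.96 and 1.33 CPM and under PROTAC 3.23, 2.62 and 3.01 CPM (log2 change 0.87 ± 0.27, adjusted p = 0.0388). The shRNA groups overlapped, and the PROTAC call was lost when any library but DMSO 2 was left out (adjusted p up to 0.133). In MDA-MB-436 the shRNA pair read 8.07, 8.19 and 9.50 CPM and 20.8, 21.5 and 18.0 CPM (log2 change 1.23 ± 0.11, adjusted p = 1.16e-05). The PROTAC pair read 10.2, 8.62 and 9.35 CPM and 18.5, 19.9 and 18.7 CPM (log2 change 1.02 ± 0.11, adjusted p = 4.35e-05). DHX58 was clearly higher in all treated libraries of MDA-MB-436; the larger change there passed for the shRNA (0.998 ± 0.29, adjusted p = 0.0193) and did not for the PROTAC (0.15 ± 0.30, adjusted p = 0.828). IFIH1, which encodes the long double-stranded RNA sensor MDA5, went the same way: it rose from 27.7 ± 1.64 to 44.3 ± 2.60 CPM and from 28.5 ± 0.598 to 43.9 ± 7.55 CPM in MDA-MB-436 (log2 changes 0.68 and 0.62), while in MDA-MB-231 its changes of 0.18 and 0.33 did not pass. The difference of IFIH1 between lines did not pass either (0.47 ± 0.25 and 0.30 ± 0.25).

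The oligoadenylate synthetases make the second messenger that activates RNase L. OASL (ENSG00000135114, chromosome 12, 121019111 to 121039242), the family member without synthetase activity, was low in MDA-MB-231. OASL counted 3.13, 2.78 and 2.81 CPM and 7.36, 6.53 and 7.32 CPM in the shRNA pair of MDA-MB-231 (log2 change 1.28 ± 0.12, adjusted p = 2.18e-05). Its DMSO libraries held 3.24, 2.91 and 2.82 CPM and its PROTAC libraries 6.45, 5.83 and 5.20 CPM (log2 change 0.96 ± 0.12, adjusted p = 0.000167). All treated libraries lay above all controls. In MDA-MB-436 the shRNA pair held 43.6, 40.9 and 43.0 CPM and 43.0, 44.8 and 43.7 CPM (log2 change 0.04 ± 0.09, adjusted p = 0.763). The PROTAC pair held 44.6, 37.4 and 42.4 CPM and 39.2, 44.2 and 36.7 CPM (log2 change -0.05 ± 0.09, adjusted p = 0.728). OASL was far higher in MDA-MB-436 from the start and its groups overlapped there, and the changes differed between lines by -1.25 ± 0.15 and -1.004 ± 0.15 (adjusted p = 3.76e-06 and 4.18e-05).

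OAS3 (ENSG00000111331, chromosome 12, 112938352 to 112973249), another gene of the family, rose in MDA-MB-231. OAS3 read 23.3, 22.4 and 23.3 CPM and 38.2, 41.0 and 38.6 CPM there for the shRNA (log2 change 0.77 ± 0.06, adjusted p = 4.59e-06). DMSO gave 23.2, 23.2 and 23.1 CPM and PROTAC 38.7, 41.0 and 42.3 CPM (log2 change 0.81 ± 0.06, adjusted p = 3.16e-06). Treated libraries were above controls by a wide margin. The shRNA pair of MDA-MB-436 was 93.8, 94.8 and 91.4 CPM and 107, 116 and 119 CPM (log2 change 0.29 ± 0.09, adjusted p = 0.0266). The PROTAC pair was 109, 97.4 and 104 CPM and 100.2, 126 and 104 CPM (log2 change 0.09 ± 0.09, adjusted p = 0.491). The MDA-MB-436 shRNA rise was lost when any library but MDM2 shRNA 1 was left out (adjusted p up to 0.106), and its PROTAC groups overlapped. OAS2 rose in MDA-MB-231 from 6.80 ± 0.698 to 11.7 ± 0.337 CPM and from 7.61 ± 0.962 to 13.0 ± 0.967 CPM (log2 changes 0.78 ± 0.11 and 0.78 ± 0.11) and was at about 1 CPM in MDA-MB-436, where it did not pass. OAS1 averaged at most 1.69 CPM in any group and its changes of 1.64, 1.48, 0.51 and 1.05 carried adjusted p of 0.18, 0.228, 0.457 and 0.111.

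IFIT proteins bind foreign or incompletely capped RNA and block its translation. Of the 4 genes, 3 rose in MDA-MB-231 under each treatment, beside 11.1% of all genes. In MDA-MB-436 none rose, and 1 fell under shRNA and 2 under the PROTAC, beside falls in 14.4% and 15.1% of all genes. IFIT2 (ENSG00000119922, chromosome 10, 89283694 to 89309276) had the largest called changes of the group in MDA-MB-231. IFIT2 was 15.1, 16.6 and 17.7 CPM under non-targeting shRNA and 40.3, 37.0 and 38.7 CPM under MDM2 shRNA (log2 change 1.23 ± 0.08, adjusted p = 1.71e-06). DMSO libraries were at 14.8, 15.5 and 16.7 CPM and PROTAC libraries at 44.3, 42.8 and 39.3 CPM (log2 change 1.43 ± 0.08, adjusted p = 5.85e-07). Each treated library was far above each control. MDA-MB-436 started near that treated level, with 40.8, 36.5 and 39.0 CPM and 43.1, 45.0 and 45.8 CPM in the shRNA pair (log2 change 0.20 ± 0.08, adjusted p = 0.0642). Its PROTAC pair was 41.0, 41.6 and 44.2 CPM and 42.8, 48.4 and 43.7 CPM (log2 change 0.09 ± 0.08, adjusted p = 0.416). The MDA-MB-436 shRNA groups were apart by a small margin and passed under 5 alternatives, among them DESeq2 (adjusted p = 0.0321), and the PROTAC groups overlapped. IFIT2 differed between lines by -1.05 ± 0.12 and -1.33 ± 0.12 (adjusted p = 1.79e-06 and 8.00e-08).

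IFIT3 (ENSG00000119917, chromosome 10, 89327894 to 89340971) stabilises IFIT1 on RNA. IFIT3 measured 43.3, 43.3 and 43.8 CPM and 69.2, 68.5 and 68.1 CPM in the shRNA pair of MDA-MB-231 (log2 change 0.66 ± 0.04, adjusted p = 8.39e-07). Its PROTAC pair measured 40.4, 41.4 and 41.4 CPM and 68.8, 67.9 and 67.8 CPM (log2 change 0.73 ± 0.04, adjusted p = 3.79e-07). Spread within groups was small and the groups did not overlap. MDA-MB-436 gave 49.2, 46.1 and 47.5 CPM and 45.3, 44.0 and 43.2 CPM for the shRNA (log2 change -0.11 ± 0.08, adjusted p = 0.341). For the PROTAC it gave 45.1, 49.5 and 44.7 CPM and 43.3, 47.4 and 51.0 CPM (log2 change 0.02 ± 0.08, adjusted p = 0.856). Neither passed, and the difference between lines was -0.78 ± 0.08 and -0.71 ± 0.08 (adjusted p = 5.57e-07 and 1.71e-06).

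IFIT1 (ENSG00000185745, chromosome 10, 89392546 to 89406486), which binds RNA lacking the methylated cap, moved in opposite directions. IFIT1 was 14.6, 14.1 and 15.1 CPM and 21.5, 20.9 and 21.4 CPM in the shRNA pair of MDA-MB-231 (log2 change 0.54 ± 0.10, adjusted p = 0.0022). DMSO gave 15.4, 13.1 and 17.4 CPM and PROTAC 20.4, 20.6 and 18.4 CPM (log2 change 0.37 ± 0.10, adjusted p = 0.0188). The PROTAC rise was lost when DMSO 1 or 2 or PROTAC 1 or 2 was left out (adjusted p up to 0.0675). In MDA-MB-436 it was 27.7, 27.6 and 30.5 CPM and 15.04, 15.3 and 16.4 CPM for the shRNA (log2 change -0.88 ± 0.08, adjusted p = 1.42e-05). The PROTAC pair was 28.7, 30.5 and 28.3 CPM and 16.6, 15.6 and 15.7 CPM (log2 change -0.87 ± 0.08, adjusted p = 1.47e-05). Every treated MDA-MB-436 library was near the control level of MDA-MB-231, and the falls passed under each alternative run, scaling included. The lines differed by -1.44 ± 0.13 and -1.24 ± 0.13 (adjusted p = 1.95e-07 and 1.12e-06), although IFIT1, IFIT2 and IFIT3 are neighbours on chromosome 10. In MDA-MB-436 under the PROTAC, IFIT5 had its only call, a fall from 8.91 ± 1.03 to 6.59 ± 0.0869 CPM (log2 change -0.44 ± 0.12), a call lost without DMSO library 2 or 3 (adjusted p = 0.0867 and 0.0813) and without scaling (log2 change -0.271, adjusted p = 0.128).

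**Figure D2:**
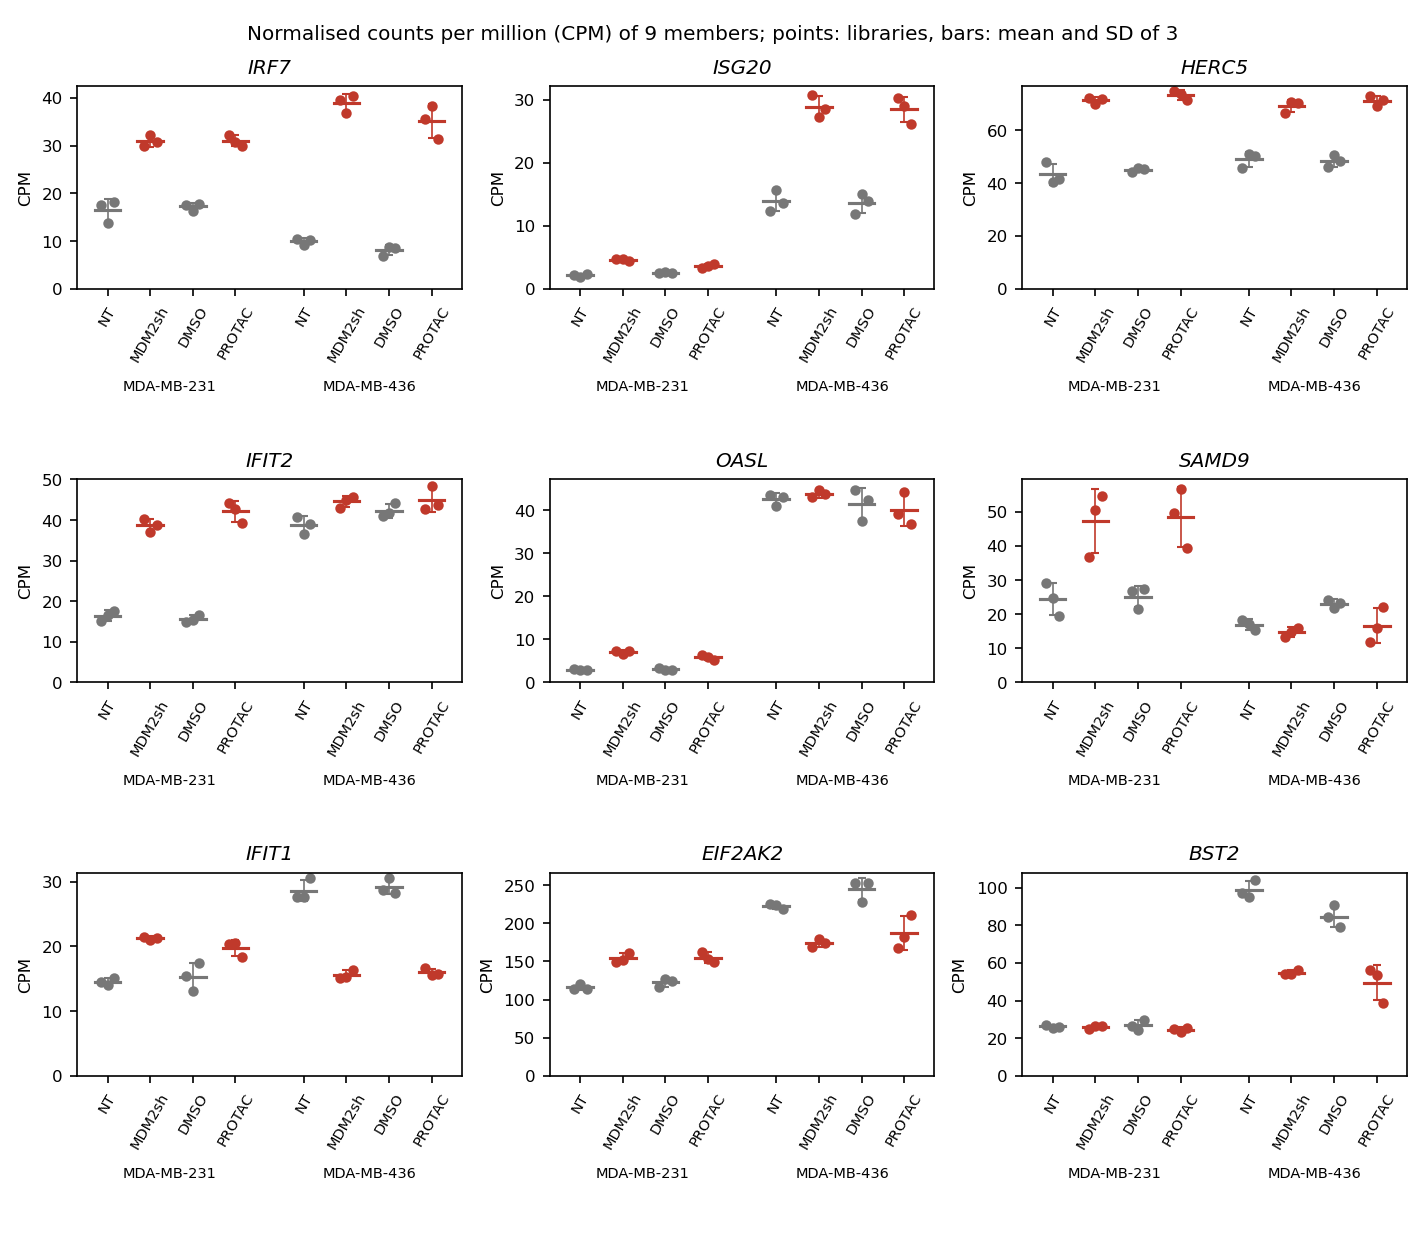
CPM of 9 members in the 24 libraries; points are libraries, bars the mean and SD of 3, grey for controls and red for treated groups, with the vertical axis from 0. IRF7, ISG20 and HERC5 are higher in treated groups of both lines, IFIT2, OASL and SAMD9 in those of MDA-MB-231, and IFIT1, EIF2AK2 and BST2 are lower in the treated groups of MDA-MB-436.

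ISG15 is a ubiquitin-like protein that UBE2L6 and HERC5 attach to new proteins and USP18 removes. In MDA-MB-231 5 of the 6 genes rose under each treatment, all but TRIM25, a ubiquitin ligase known for acting on the sensor RIG-I. In MDA-MB-436 2 rose under shRNA and 3 under the PROTAC, and none fell. ISG15 (ENSG00000187608, chromosome 1, 1001138 to 1014540) was 52.4, 50.3 and 58.0 CPM and 104, 98.7 and 100.4 CPM in the shRNA pair of MDA-MB-231 (log2 change 0.91 ± 0.07, adjusted p = 4.55e-06). DMSO gave 54.2, 49.8 and 56.4 CPM and PROTAC 93.8, 90.0 and 101 CPM (log2 change 0.83 ± 0.07, adjusted p = 9.17e-06). Treated and control libraries were far apart. MDA-MB-436 gave 69.3, 74.6 and 82.3 CPM and 91.8, 88.9 and 84.3 CPM with the shRNA (log2 change 0.23 ± 0.13, adjusted p = 0.211). With the PROTAC it gave 62.4, 66.2 and 63.0 CPM and 97.2, 89.1 and 64.7 CPM (log2 change 0.39 ± 0.13, adjusted p = 0.0344). The groups of the PROTAC comparison overlapped, and its call was lost when any library but PROTAC 3 was left out (adjusted p up to 0.153). The smaller change in MDA-MB-436 passed for the shRNA (-0.70 ± 0.17, adjusted p = 0.00462) and not for the PROTAC (-0.43 ± 0.17, adjusted p = 0.0766).

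HERC5 (ENSG00000138646, chromosome 4, 88457117 to 88506163), the ligase of ISG15, rose in both lines. HERC5 counted 47.9, 40.5 and 41.4 CPM and 72.3, 70.1 and 71.8 CPM in the shRNA pair of MDA-MB-231 (log2 change 0.72 ± 0.06, adjusted p = 1.31e-05). The PROTAC pair counted 44.3, 45.7 and 45.2 CPM and 74.98, 73.6 and 71.5 CPM (log2 change 0.70 ± 0.06, adjusted p = 1.53e-05). In MDA-MB-436 the shRNA pair counted 45.6, 51.1 and 50.2 CPM and 66.4, 70.5 and 70.3 CPM (log2 change 0.50 ± 0.07, adjusted p = 0.000217). Each treated library was above each control again. The last pair, PROTAC in MDA-MB-436, counted 46.0, 50.8 and 48.3 CPM and 72.9, 69.2 and 71.3 CPM (log2 change 0.56 ± 0.07, adjusted p = 8.87e-05). No pair overlapped, and the difference between lines did not pass (-0.24 ± 0.09 and -0.14 ± 0.09). HERC6, its neighbour on chromosome 4, rose by 0.39 and 0.46 in MDA-MB-231, where the shRNA call was lost without non-targeting library 1 or 3 or MDM2 shRNA library 1 or 3 (adjusted p up to 0.0706), and by 0.05 and 0.11 without passing in MDA-MB-436.

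UBE2L6 (ENSG00000156587, chromosome 11, 57551656 to 57568284) is the conjugating enzyme of ISG15. UBE2L6 was 32.6, 33.3 and 34.7 CPM and 48.7, 49.7 and 45.6 CPM in the shRNA pair of MDA-MB-231 (log2 change 0.52 ± 0.07, adjusted p = 0.0002). DMSO libraries held 31.8, 33.3 and 33.8 CPM and PROTAC libraries 47.7, 45.6 and 52.9 CPM (log2 change 0.56 ± 0.07, adjusted p = 0.000118). Both rises were without overlap. The shRNA pair of MDA-MB-436 was 74.7, 76.4 and 74.7 CPM and 58.7, 54.9 and 59.0 CPM (log2 change -0.39 ± 0.14, adjusted p = 0.0509). The PROTAC pair there was 63.9, 69.7 and 60.8 CPM and 67.7, 55.6 and 41.8 CPM (log2 change -0.23 ± 0.14, adjusted p = 0.222). Treated means were lower there, the shRNA value missed the threshold and passed as a fall under 7 alternatives (DESeq2 adjusted p = 0.0274), and the PROTAC value passed without PROTAC library 1 (adjusted p = 0.0176). The difference between lines was -0.92 ± 0.17 and -0.79 ± 0.17 (adjusted p = 0.000494 and 0.00183).

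USP18 (ENSG00000184979, chromosome 22, 18149899 to 18177397), which removes ISG15 and also damps the interferon receptor, rose in all 4 comparisons. USP18 was 1.21, 1.24 and 1.40 CPM and 3.93, 3.24 and 2.33 CPM in the shRNA pair of MDA-MB-231 (log2 change 1.31 ± 0.26, adjusted p = 0.00393). DMSO gave 0.984, 0.825 and 1.57 CPM and PROTAC 2.64, 2.04 and 2.47 CPM (log2 change 1.08 ± 0.26, adjusted p = 0.0117). Levels were low in this line, but no treated library fell to a control level. The shRNA pair of MDA-MB-436 was 8.85, 8.51 and 9.32 CPM and 14.0, 14.4 and 16.3 CPM (log2 change 0.75 ± 0.11, adjusted p = 0.000336). The PROTAC pair was 9.13, 8.35 and 7.80 CPM and 13.6, 15.9 and 14.7 CPM (log2 change 0.81 ± 0.11, adjusted p = 0.000176). The difference between lines did not pass (-0.58 ± 0.28 and -0.26 ± 0.28). USP18 has near-identical copies in the genome, so its counts are uncertain where reads were shared between them. TRIM25 changed by -0.05, -0.13, 0.10 and 0.18 and passed in no comparison.

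PARP9 and DTX3L form a complex that ubiquitinates histones and viral proteins, and PARP14 and PARP12 add ADP-ribose. All 4 genes rose under shRNA in MDA-MB-231 and 3 rose under the PROTAC, while in MDA-MB-436 none rose and PARP9 fell in both. PARP9 (ENSG00000138496, chromosome 3, 122527924 to 122564577) was 9.91, 11.05 and 11.4 CPM and 14.6, 14.1 and 15.6 CPM in the shRNA pair of MDA-MB-231 (log2 change 0.45 ± 0.11, adjusted p = 0.0121). DMSO gave 9.64, 12.1 and 11.2 CPM and PROTAC 17.6, 14.4 and 14.9 CPM (log2 change 0.51 ± 0.11, adjusted p = 0.00596). The groups were apart in both, and the shRNA call was lost without non-targeting library 1 (adjusted p = 0.0585). In MDA-MB-436 PARP9 was 55.5, 53.2 and 54.6 CPM and 40.0, 46.2 and 39.8 CPM for the shRNA (log2 change -0.37 ± 0.13, adjusted p = 0.0441). For the PROTAC it was 62.8, 59.3 and 59.99 CPM and 34.7, 42.2 and 27.7 CPM (log2 change -0.80 ± 0.13, adjusted p = 0.000551). The shRNA fall was lost when any library but MDM2 shRNA 2 was left out (adjusted p up to 0.136) and without scaling (0.263), and the PROTAC fall passed each time. The difference between lines was -0.84 ± 0.19 and -1.30 ± 0.19 (adjusted p = 0.00248 and 3.19e-05).

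DTX3L shares exon bases with PARP9 on the other strand, so without a stated strand their counts are not fully separate, yet in MDA-MB-436 DTX3L changed by only -0.01 ± 0.07 and -0.08 ± 0.07. In MDA-MB-231 it rose from 30.4 ± 2.97 to 39.5 ± 1.62 CPM and from 32.5 ± 0.515 to 43.8 ± 0.292 CPM (log2 changes 0.38 and 0.43). PARP14 (ENSG00000173193, chromosome 3, 122680618 to 122730840), which modifies STAT signalling, was 25.4, 25.0 and 27.0 CPM and 45.3, 39.1 and 45.9 CPM in the shRNA pair of MDA-MB-231 (log2 change 0.75 ± 0.08, adjusted p = 4.01e-05). Its PROTAC pair was 23.6, 25.3 and 25.5 CPM and 40.2, 40.3 and 37.0 CPM (log2 change 0.66 ± 0.08, adjusted p = 0.000102). Both pairs were without overlap. MDA-MB-436 held several times more PARP14, 134, 142 and 130 CPM and 156, 160 and 159 CPM in the shRNA pair (log2 change 0.23 ± 0.11, adjusted p = 0.129). The PROTAC pair there was 158, 148 and 153 CPM and 139, 176 and 199 CPM (log2 change 0.16 ± 0.11, adjusted p = 0.273). Neither passed, though the PROTAC value did without PROTAC library 1 (adjusted p = 0.00686), and the lines differed by -0.54 ± 0.12 and -0.50 ± 0.12 (adjusted p = 0.00297 and 0.00484). PARP12 rose under shRNA in MDA-MB-231 (from 27.2 ± 1.503 to 34.6 ± 0.610 CPM, log2 change 0.35 ± 0.08) and missed under the PROTAC (adjusted p = 0.0541), where it passed without DMSO library 1 or PROTAC library 3 (adjusted p = 0.0303 and 0.0413).

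Of 6 restriction factors of membrane and entry in MDA-MB-231, 0 rose under shRNA by edgeR and 1, IFITM1, under the PROTAC. Of all genes tested there, 11.1% rose in each comparison, and 6 genes are too few to set against that share. Of 5 tested in MDA-MB-436, PLSCR1 rose while BST2 and IFITM3 fell under both treatments. BST2 (ENSG00000130303, chromosome 19, 17402939 to 17405648) encodes tetherin, which holds budding virus on the membrane. BST2 was 27.0, 25.5 and 26.2 CPM and 25.1, 26.5 and 26.5 CPM in the shRNA pair of MDA-MB-231 (log2 change -0.01 ± 0.08, adjusted p = 0.948). DMSO gave 26.5, 24.5 and 29.8 CPM and PROTAC 24.8, 23.3 and 25.7 CPM (log2 change -0.13 ± 0.08, adjusted p = 0.278). Treated and control groups overlapped in both. MDA-MB-436 started higher, with 97.3, 94.9 and 104 CPM and 54.2, 54.1 and 56.3 CPM in the shRNA pair (log2 change -0.85 ± 0.12, adjusted p = 0.000211). Its PROTAC pair was 84.3, 90.6 and 79.2 CPM and 56.1, 53.5 and 39.0 CPM (log2 change -0.77 ± 0.12, adjusted p = 0.000382). All treated libraries there were below all controls, with and without scaling, and the lines differed by -0.86 ± 0.16 and -0.63 ± 0.16 (adjusted p = 0.000555 and 0.0065).

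IFITM3, which blocks fusion of viruses in endosomes, fell from 229 ± 16.0 to 151 ± 5.74 CPM and from 190 ± 8.16 to 147 ± 19.7 CPM in MDA-MB-436 (log2 changes -0.60 ± 0.09 and -0.37 ± 0.09). The PROTAC fall was lost without DMSO library 2 (adjusted p = 0.0506) and without scaling (0.11). In MDA-MB-231 IFITM3 changed by 0.02 and 0.14, and the difference between lines passed for the shRNA (-0.64 ± 0.19) and not for the PROTAC (-0.50 ± 0.19, adjusted p = 0.0606). IFITM1, its paralogue at the plasma membrane, rose under the PROTAC in MDA-MB-231 (from 11.8 ± 3.07 to 23.3 ± 3.16 CPM, log2 change 0.98 ± 0.20) and changed by 0.56 ± 0.20 under shRNA, which passed without MDM2 shRNA library 3 (adjusted p = 0.0495). IFITM1 shares exon bases with IFITM2 on the same strand, and the IFITM genes are close paralogues, so their reads may be split; IFITM2 passed nowhere. PLSCR1, a phospholipid scramblase, rose from 16.5 ± 0.929 to 23.9 ± 0.865 CPM and from 17.04 ± 2.32 to 24.9 ± 3.53 CPM in MDA-MB-436 (log2 changes 0.53 and 0.55). Its changes in MDA-MB-231, 0.21 and 0.31, did not pass with all libraries, and the second passed without DMSO library 2 (adjusted p = 0.0207). RTP4, a receptor chaperone, was at most 0.327 CPM on average in any group.

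Among 10 further effectors inside the cell, 4 of 7 tested rose under shRNA and 5 of 7 under the PROTAC in MDA-MB-231. Of those in MDA-MB-436, 3 of 9 and 2 of 9 rose, and none fell in either line. Of all genes tested, 11.1% rose in each comparison of MDA-MB-231, and 16% and 17.3% rose in MDA-MB-436. ISG20 (ENSG00000172183, chromosome 15, 88636153 to 88656483) is an exonuclease that degrades viral RNA. ISG20 was 2.16, 1.85 and 2.41 CPM and 4.67, 4.71 and 4.39 CPM in the shRNA pair of MDA-MB-231 (log2 change 1.10 ± 0.13, adjusted p = 0.000116). DMSO gave 2.49, 2.67 and 2.51 CPM and PROTAC 3.35, 3.58 and 3.93 CPM (log2 change 0.50 ± 0.13, adjusted p = 0.0165). The PROTAC rise was the smaller and was lost without DMSO library 1 or 3 or PROTAC library 3 (adjusted p up to 0.0628). In MDA-MB-436 the shRNA pair was 12.4, 15.7 and 13.7 CPM and 30.8, 27.3 and 28.5 CPM (log2 change 1.05 ± 0.12, adjusted p = 5.86e-05). That of the PROTAC was 11.8, 15.02 and 14.0 CPM and 30.2, 28.95 and 26.2 CPM (log2 change 1.07 ± 0.12, adjusted p = 4.91e-05). Each treated MDA-MB-436 library was well above each control, and the line difference passed for the PROTAC (0.57 ± 0.17, adjusted p = 0.0223) and not for the shRNA (-0.07 ± 0.17, adjusted p = 0.903).

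SAMD9 (ENSG00000205413, chromosome 7, 93099513 to 93118023) restricts poxviruses and slows cell growth. SAMD9 was 29.1, 24.8 and 19.6 CPM and 36.9, 50.6 and 54.7 CPM in the shRNA pair of MDA-MB-231 (log2 change 0.95 ± 0.19, adjusted p = 0.00414). Its PROTAC pair was 26.7, 21.6 and 27.2 CPM and 49.8, 56.7 and 39.3 CPM (log2 change 0.95 ± 0.19, adjusted p = 0.00409). The spread was wide but the groups did not overlap. In MDA-MB-436 SAMD9 was 18.4, 17.03 and 15.2 CPM and 13.2, 14.8 and 16.1 CPM for the shRNA (log2 change -0.20 ± 0.19, adjusted p = 0.492). For the PROTAC it was 24.3, 21.8 and 23.2 CPM and 11.8, 16.0 and 22.1 CPM (log2 change -0.48 ± 0.19, adjusted p = 0.0757). The groups of MDA-MB-436 overlapped, and without PROTAC library 3 the second comparison passed as a fall (log2 change -0.74, adjusted p = 0.00306). SAMD9 differed between lines by -1.16 ± 0.27 and -1.43 ± 0.27 (adjusted p = 0.00342 and 0.000501), the largest difference of the 45 members in the PROTAC comparison. Its neighbour and paralogue SAMD9L varied widely between libraries and passed nowhere.

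MX1, a dynamin-like GTPase that traps viral nucleoproteins, rose in all 4 comparisons. Its level moved from 1.14 ± 0.0809 to 2.27 ± 0.812 CPM and from 1.19 ± 0.0955 to 2.59 ± 0.442 CPM in MDA-MB-231, and from 7.74 ± 0.538 to 11.2 ± 0.565 CPM and from 7.69 ± 1.05 to 10.9 ± 0.792 CPM in MDA-MB-436 (log2 changes 0.99, 1.11, 0.54 and 0.50). GBP1, a guanylate-binding GTPase, rose by 0.48 ± 0.06 and 0.46 ± 0.06 in MDA-MB-231. Its rise of 0.26 ± 0.08 under shRNA in MDA-MB-436 was lost when any library but MDM2 shRNA 3 was left out (adjusted p up to 0.128). TRIM21, an antibody receptor of the cytosol, rose only under the PROTAC in MDA-MB-231 (0.41 ± 0.11), a call lost without DMSO library 2 or PROTAC library 1 (adjusted p = 0.0791 and 0.0663). RSAD2, which encodes viperin, and its neighbour CMPK2, a nucleotide kinase, were line-specific in level: in MDA-MB-436 non-targeting libraries they averaged 28.7 and 15.7 CPM, while in MDA-MB-231 they had at most 23 and 8 counts over the 3 libraries of any group. Neither passed in MDA-MB-436 (-0.15 ± 0.09 and -0.09 ± 0.09 for RSAD2, -0.16 ± 0.12 and -0.18 ± 0.12 for CMPK2), though RSAD2 passed as a fall under shRNA without MDM2 shRNA library 2 (adjusted p = 0.0474). MX2 and TRIM22 were low, with MX2 under 1 CPM on average in all groups and TRIM22 tested in MDA-MB-231 alone, at 2.83 to 3.42 CPM.

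The IFI genes and their companions, XAF1 and EPSTI1, followed MDA-MB-231 in part. Of 7 tested there, IFI6, IFI35 and IFI44 rose under shRNA and IFI6 and IFI44 under the PROTAC, beside 11.1% of all genes in each. Of 5 tested in MDA-MB-436, IFI27 alone rose, under shRNA, where 16% of all genes rose. IFI6, a protein of the endoplasmic reticulum and mitochondria, rose from 9.67 ± 1.28 to 15.9 ± 0.157 CPM and from 8.42 ± 1.34 to 16.8 ± 1.30 CPM (log2 changes 0.72 ± 0.13 and 0.99 ± 0.13). IFI44 rose by 0.50 and 0.40, the second lost without DMSO library 3 or any 1 PROTAC library (adjusted p up to 0.089). In MDA-MB-436 IFI44 did not pass, but under the PROTAC it passed as a fall without PROTAC library 3 (log2 change -0.245, adjusted p = 0.0158). IFI35 rose by 0.35 under shRNA in MDA-MB-231, a call lost without non-targeting library 3 or MDM2 shRNA library 1 (adjusted p = 0.0629 and 0.0561), and it passed as a rise under the PROTAC in MDA-MB-436 without PROTAC library 3 (adjusted p = 0.0285). IFI27 went from 0.436 ± 0.0832 to 0.947 ± 0.161 CPM under shRNA in MDA-MB-436 (log2 change 1.12 ± 0.26, adjusted p = 0.00651) and by 0.72 ± 0.26 under the PROTAC, which missed the threshold (adjusted p = 0.0518) and passed without PROTAC library 3 (0.045). XAF1, which opposes inhibitors of apoptosis, averaged at most 2.07 CPM, EPSTI1 at most 1.14 CPM and IFI44L at most 4.99 CPM in any group, and none of these passed.

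Of the 4 secreted members, TNFSF10 rose in MDA-MB-231, CXCL10 and CXCL11 rose in MDA-MB-436, and LGALS3BP passed in neither line. TNFSF10 encodes the death ligand TRAIL and rose in MDA-MB-231 from 2.66, 2.47 and 2.03 CPM to 6.67, 6.35 and 6.09 CPM under shRNA (log2 change 1.41 ± 0.20, adjusted p = 0.000406). Under the PROTAC it rose from 1.52, 1.65 and 2.69 CPM to 6.13, 5.69 and 6.04 CPM (log2 change 1.60 ± 0.20, adjusted p = 0.000185). In MDA-MB-436 TNFSF10 had at most 20 counts over the 3 libraries of a group and was not tested. CXCL11, a chemokine that draws activated T cells, was at 0.998, 0.681 and 0.765 CPM under non-targeting shRNA and rose to 2.87, 2.72 and 4.46 CPM under MDM2 shRNA in MDA-MB-436 (log2 change 2.04 ± 0.44, adjusted p = 0.00406). With DMSO it was at 0.213, 0.805 and 0.992 CPM and with PROTAC at 3.84, 3.33 and 5.82 CPM (log2 change 2.67 ± 0.45, adjusted p = 0.000828). CXCL10, which shares the receptor of CXCL11, rose from 0.572 ± 0.208 to 1.45 ± 0.354 CPM and from 0.706 ± 0.0554 to 1.84 ± 0.705 CPM (log2 changes 1.33 ± 0.36 and 1.37 ± 0.36), the first lost without non-targeting library 1 or MDM2 shRNA library 2 (adjusted p = 0.0525 and 0.0631). In MDA-MB-231 the chemokines had at most 8 counts (CXCL10) and 16 counts (CXCL11) over the 3 libraries of any group. When all 24 libraries were fitted together, the TNFSF10 rises and the CXCL10 rises and the shRNA rise of CXCL11 no longer passed (adjusted p 0.086 to 0.137). LGALS3BP, a secreted glycoprotein, ranged widely within groups and passed nowhere with all libraries, though in MDA-MB-436 it passed as a fall without non-targeting library 2 (adjusted p = 0.0239) and without DMSO library 1 (0.0249).

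Whether the lines differed was tested directly, on the 45 members tested in both, as the change in MDA-MB-436 minus that in MDA-MB-231. For the shRNA 3 were higher in MDA-MB-436 (IRF7, DHX58 and IRF1), 18 were lower and 24 did not pass, where 24.6% of the genes tested in both lines were called (12.1% higher and 12.4% lower). For the PROTAC 4 were higher (IRF7, IRF1, ISG20 and TRIM25), 17 were lower and 24 did not pass, against 27.6% of genes (14.3% higher and 13.3% lower). Of the 4, 2 were left without MDA-MB-231 DMSO library 2 and 2 without MDA-MB-436 DMSO library 1. The median difference of the members was -0.49 and -0.44. Of the 13 members that rose in MDA-MB-231 alone, 8 differed between lines under both treatments (OASL, STAT2, IFIT2, IFIT3, UBE2L6, DTX3L, PARP14 and SAMD9), IFI6 and IFI44 under 1, and OAS2, SP110 and HERC6 under neither. All 4 members that rose in MDA-MB-231 and fell in MDA-MB-436 differed under both. Of the 4 called in MDA-MB-436 alone, BST2 differed under both treatments, IFITM3 under the shRNA, and IFIH1 and PLSCR1 under neither, so a rise in MDA-MB-436 alone is not shown for these last genes.

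**Figure D3:**
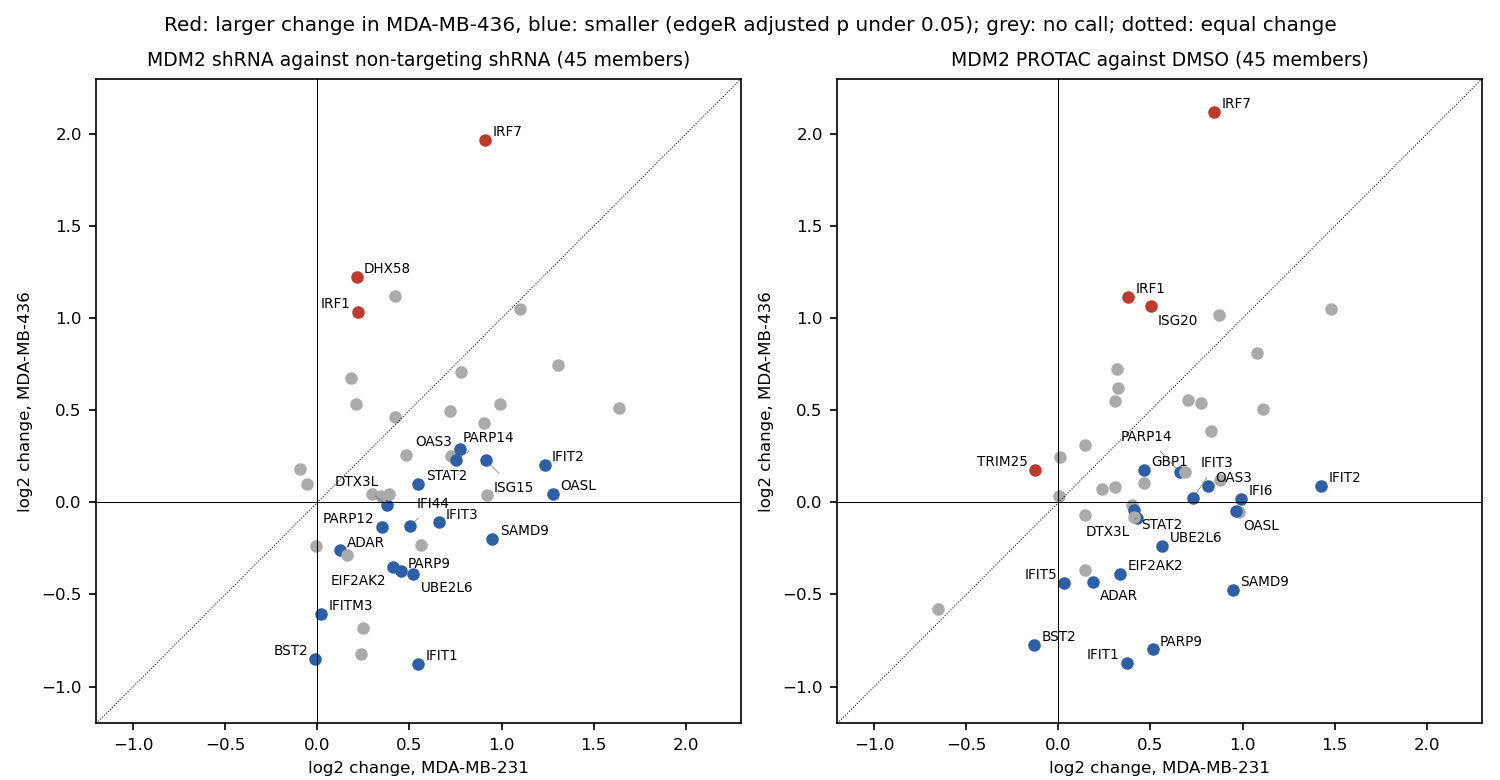
Log2 change of the 45 members tested in both lines, MDA-MB-231 on the horizontal and MDA-MB-436 on the vertical axis, for shRNA (left) and PROTAC (right); red and blue mark members whose change was larger or smaller in MDA-MB-436 at an adjusted p under 0.05 by edgeR. Below the dotted line of equal change lie 18 and 17 called members, and above it 3 and 4, with IRF7 farthest up in both panels.

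The lines also differed in their starting levels. In controls, 27 of the 45 members were higher in MDA-MB-436, 13 were lower and 5 did not pass, where 68.7% of genes tested in both lines differed (34.5% higher and 34.2% lower). OASL was 3.77 ± 0.08 higher on the log2 scale, USP18 2.79 ± 0.15, IFIH1 2.76 ± 0.13, MX1 2.67 ± 0.14, IFI44L 2.62 ± 0.25 and ISG20 2.50 ± 0.09. At the other end were IFITM2 (-4.73 ± 0.22), OAS2 (-3.25 ± 0.18), IFITM1 (-3.22 ± 0.23), IFI27 (-2.61 ± 0.15) and IFIT5 (-2.60 ± 0.07). Members with a higher start than in MDA-MB-231 did not all move alike: IFIH1, MX1, USP18 and ISG20 rose in MDA-MB-436, while OASL did not pass.

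Per kilobase of exon, which allows genes to be set beside each other, the same few members led in both lines. The median over 6 control libraries in MDA-MB-231 was 95.01 CPM per kilobase for LGALS3BP, 61.9 for IFITM3, 56.6 for ISG15, 23.6 for BST2 and 22.2 for ADAR. In MDA-MB-436 it was 153 for IFITM3, 82.9 for BST2, 72.0 for ISG15, 51.7 for LGALS3BP and 45.7 for ADAR. The ranges of LGALS3BP (30.1 to 99.1), IFITM3 (58.0 to 94.0) and ISG15 (52.9 to 61.7) overlapped in MDA-MB-231, so their order there is not settled, and BST2 and ADAR (21.9 to 26.7 and 21.8 to 23.0) overlapped as well. TRIM25 (19.2 to 23.5) and IFITM2 (16.9 to 22.2) overlapped with ADAR there too. In MDA-MB-436 IFITM3 (134 to 184) was above all others, and BST2 (70.8 to 93.0) overlapped with ISG15 (66.3 to 87.4). LGALS3BP (19.9 to 62.6), ADAR (44.1 to 50.4) and IFI6 (34.7 to 47.7) overlapped in that line, so the order below ISG15 is not settled.

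No member was called as differing between hairpin and PROTAC. The PROTAC change minus the shRNA change passed for 0 of 50 members in each line by edgeR, where 0.00484% of all genes tested were called for MDA-MB-231 and 0.00441% for MDA-MB-436. At an unadjusted p under 0.05 by edgeR there was 1 of 50 members in each line: ISG20 in MDA-MB-231, with a difference of -0.60, and PARP9 in MDA-MB-436, with -0.42. That threshold lets through as many when nothing differs, so neither gene is shown to differ. The share of all genes at it was not computed. DESeq2 and limma voom also called 0 members after adjustment. The treated groups set against each other directly, PROTAC against MDM2 shRNA, differed in 3 of all genes in MDA-MB-231 (0.0145%) and in 1 in MDA-MB-436 (0.00441%), with 0 members among them. The labels do not say whether libraries of both experiments were made independently, so how far one experiment is a repeat of the other is not known. A missed threshold does not show that the effects are equal. Across the tested members, as a description in which the points share their libraries, the shRNA and PROTAC changes had Pearson's r of 0.73 for MDA-MB-231 and 0.93 for MDA-MB-436 (50 members each). Between lines the r was 0.34 for the shRNA and 0.38 for the PROTAC (45 members).

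Upstream genes were examined from a list of 21 interferon genes, 9 receptor and JAK kinase genes, 12 genes of nucleic acid sensing and 6 negative regulators beside USP18. Interferon mRNA was measurable in MDA-MB-436 alone. IFNB1, which encodes interferon beta, had 0 counts in all 12 libraries of MDA-MB-231. In MDA-MB-436 IFNB1 went from 0, 0.116 and 0.111 CPM to 0.691, 1.18 and 1.498 CPM under shRNA (log2 change 3.78 ± 0.97, adjusted p = 0.0116) and from 0.170, 0.197 and 0 CPM to 1.30, 0.690 and 0.499 CPM under the PROTAC (log2 change 2.78 ± 0.96, adjusted p = 0.0446). IFNL1, a type III interferon, went from 0.366, 0.366 and 0.500 CPM to 4.12, 4.57 and 4.98 CPM (log2 change 3.45 ± 0.68, adjusted p = 0.00233) and from 0, 0.769 and 0.260 CPM to 4.72, 5.30 and 5.49 CPM (log2 change 3.88 ± 0.70, adjusted p = 0.00128). In MDA-MB-231 IFNL1 had 4 counts in 1 PROTAC library and 0 elsewhere. Both interferon genes were thus low, and higher in each treated MDA-MB-436 library than in each control. A further interferon gene tested in MDA-MB-436, IFNE, passed in neither comparison (0.159 to 0.282 CPM per kilobase of exon in controls). Any link between interferon mRNA and the number of members that rose in each line was not tested.

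Of the 9 receptor and kinase genes, 4 rose under shRNA and 6 under the PROTAC in MDA-MB-231, and none fell. Of all genes tested there, 11.1% rose in each comparison. In MDA-MB-436 3 rose and 1 fell, and 2 rose and 1 fell. Of all genes tested in that line, 16% and 17.3% rose, and 14.4% and 15.1% fell. Counts this small do not set the list apart from all genes in MDA-MB-436. IFNLR1, the receptor chain of type III interferon, rose in all 4 comparisons, from 5.11 ± 0.171 to 10.04 ± 0.843 CPM and from 4.78 ± 0.905 to 11.2 ± 0.677 CPM in MDA-MB-231 and from 2.45 ± 0.0658 to 7.16 ± 1.37 CPM and from 2.47 ± 0.386 to 6.47 ± 0.126 CPM in MDA-MB-436. TYK2, the kinase of IFNAR1, rose in all 4 too, by 0.30 and 0.25 in MDA-MB-231 and by 1.18 and 1.21 in MDA-MB-436. IFNAR1 rose in MDA-MB-231 by 0.45 and 0.36. JAK1 fell in MDA-MB-436 (log2 changes -0.38 ± 0.08 and -0.49 ± 0.08).

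Of 11 sensing genes tested, 8 rose under shRNA and 6 under the PROTAC in MDA-MB-231 with no falls. In MDA-MB-436 6 rose and 2 fell, and 4 rose and 2 fell. Of all genes tested, 11.1% rose in each comparison of MDA-MB-231. In MDA-MB-436 16% and 17.3% of all genes rose, and 14.4% and 15.1% fell. CGAS, the sensor of cytosolic DNA, rose everywhere, from 83.4 ± 3.65 to 133 ± 3.90 CPM and from 89.4 ± 6.88 to 131 ± 7.24 CPM in MDA-MB-231 and from 79.0 ± 3.03 to 167 ± 4.27 CPM and from 80.2 ± 0.197 to 168 ± 4.96 CPM in MDA-MB-436. STING1, its adaptor, rose in MDA-MB-231 from 13.5 ± 0.530 to 28.2 ± 1.10 CPM and from 13.9 ± 0.820 to 28.5 ± 2.22 CPM (log2 changes 1.06 and 1.04) and did not pass in MDA-MB-436 (-0.39 and -0.31), so that the lines differed by -1.46 ± 0.18 and -1.34 ± 0.18. TBK1, the kinase both pathways share, rose in MDA-MB-231 by 0.33 and 0.45 and changed by -0.34 and -0.34 in MDA-MB-436, where it fell. MAVS, the adaptor of the RNA sensors, fell in MDA-MB-436 from 128 ± 3.57 to 88.6 ± 2.96 CPM and from 131 ± 4.65 to 80.8 ± 8.27 CPM and did not pass in MDA-MB-231. TICAM1 and IFI16 rose in all 4 comparisons, and IKBKE rose in MDA-MB-436 by 0.85 and 0.79.

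Of the 6 negative regulators beside USP18, 1 fell in each comparison of MDA-MB-231 and 4 in each of MDA-MB-436, and none rose. Of all genes tested, 11.6% and 11.5% fell in MDA-MB-231, and 14.4% and 15.1% fell in MDA-MB-436. USP18, which is on that list and is a member too, went the other way and rose in all 4 comparisons. SOCS3, which blocks JAK kinases, fell in all 4, from 64.4 ± 4.33 to 45.5 ± 2.10 CPM and from 63.0 ± 0.786 to 46.5 ± 1.69 CPM in MDA-MB-231 and from 63.3 ± 3.95 to 19.004 ± 0.594 CPM and from 59.7 ± 3.25 to 18.9 ± 4.02 CPM in MDA-MB-436 (log2 changes -0.50, -0.44, -1.74 and -1.65). SOCS1, the main brake on type I interferon signalling, fell from 12.9 ± 0.805 to 3.64 ± 0.718 CPM and from 10.3 ± 0.918 to 4.50 ± 0.329 CPM in MDA-MB-436 (log2 changes -1.82 ± 0.15 and -1.199 ± 0.15) and did not pass in MDA-MB-231. Its change differed between lines by -2.04 ± 0.29 and -1.38 ± 0.29 (adjusted p = 3.37e-05 and 0.00148). PIAS1 and PTPN11 also fell in MDA-MB-436.

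**Figure D4:**
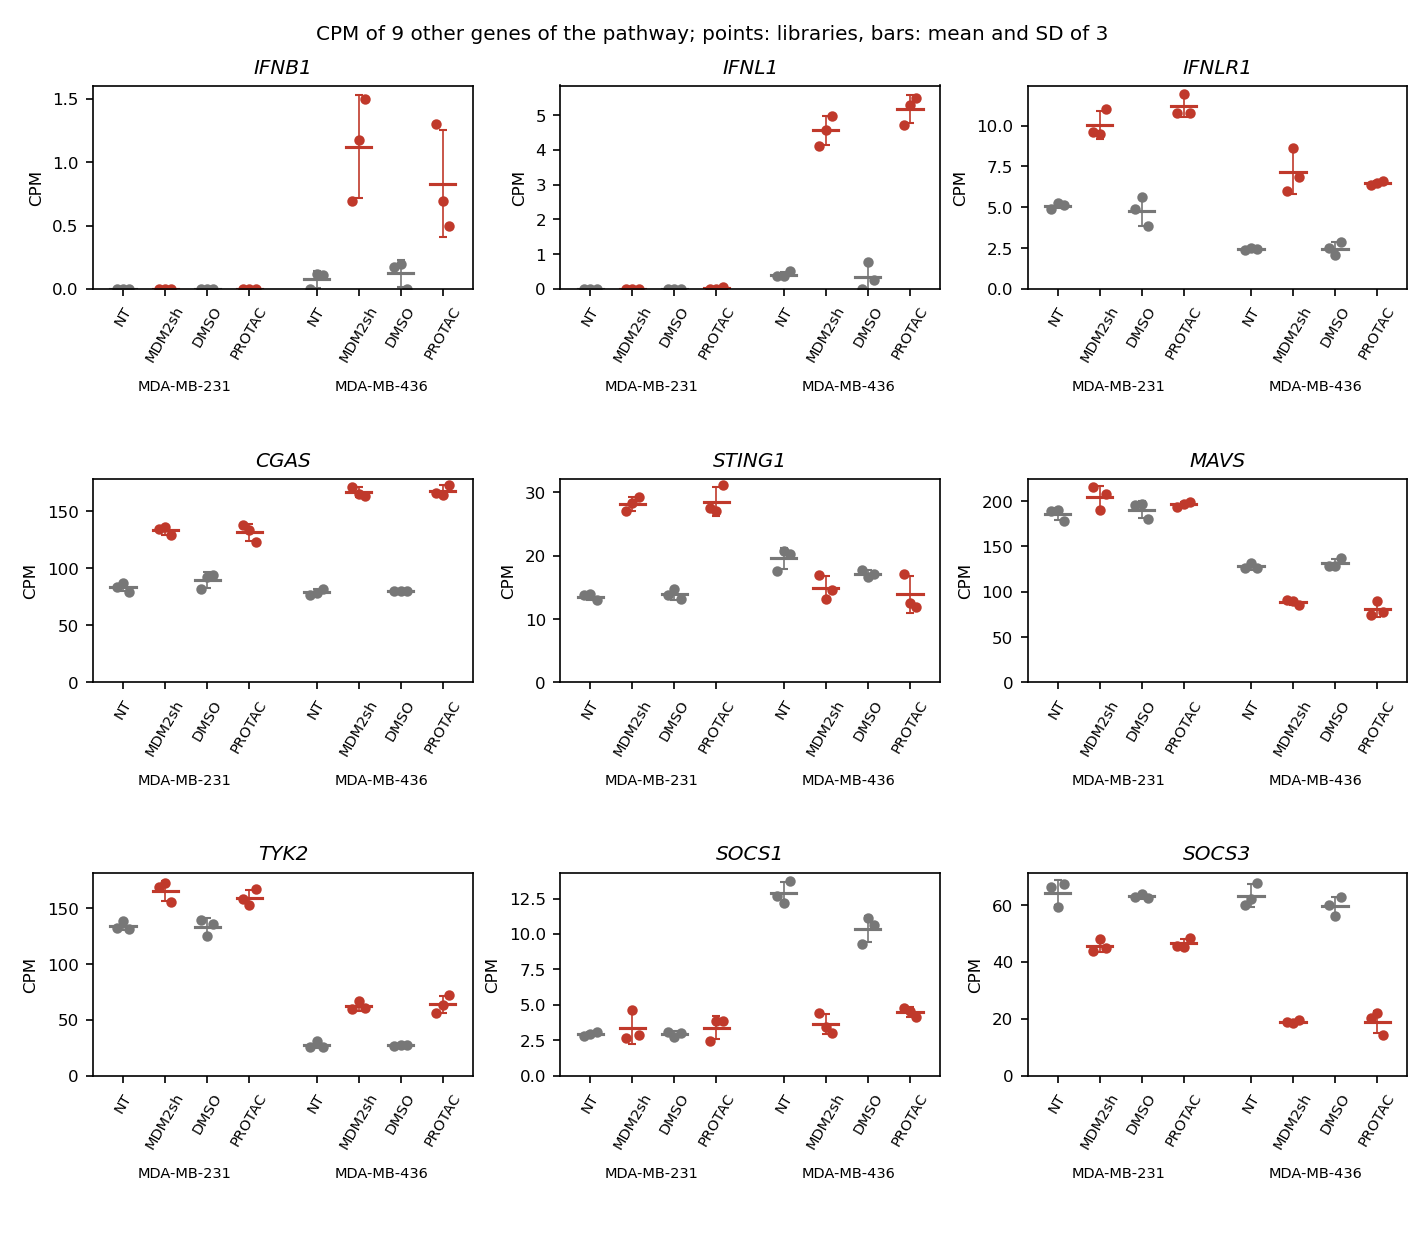
CPM of 9 genes upstream of the members in the 24 libraries; points are libraries, bars the mean and SD of 3, grey for controls and red for treated groups. IFNB1 and IFNL1 are seen in MDA-MB-436 alone, where treated libraries are highest, CGAS and IFNLR1 are higher and SOCS3 lower in treated groups of both lines, and STING1 is higher in the treated groups of MDA-MB-231.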

How the data were processed

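RNA-seq counts per Ensembl gene, whole numbers deposited by the authors in 1 table per library, were used as given, with 60675 genes each. Per the submitters' processing notes, cutadapt 2.4, HISAT2, StringTie and edgeR were used with GRCh38; the notes give no roles, and strand is not given in the sources used here. Genes with 4 counts were 1.2 to 1.64 times as frequent as their neighbours in number of counts, and the cause was not tested. Symbols, positions and exon overlaps came from GENCODE 29.

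In each line, edgeR 4.0.16 (filterByExpr, 12 libraries) chose the genes to test, which were scaled by TMM and fitted with glmQLFit, 1 mean per group (R 4.3.3). Differences between lines came from 1 such fit of 24 libraries. The Benjamini-Hochberg adjustment ran over all genes tested, with a threshold of 0.05. The fit was tested on simulated counts. Full values are given for the 8 smallest adjusted p per comparison, the 4 largest line differences per treatment and members called in opposite directions. The members and lists were chosen with earlier results of these data known. One pathway gene and 1 marker gene are not reported here. Alternatives included DESeq2 1.42.0 and limma 3.58.1.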

Additional observations from a re-analysis of the deposited data

Results flagged for a closer look

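Each result here is a member whose change under one treatment differed between the lines by edgeR's test of the difference itself, with an adjusted p under 0.05. Values are the log2 change in MDA-MB-436 minus that in MDA-MB-231, so that a negative value means a smaller rise or a fall in MDA-MB-436. For MDM2 shRNA the change was larger in MDA-MB-436 for IRF7 (1.04), DHX58 (1.00) and IRF1 (0.80). It was smaller for IFIT1 (-1.44), OASL (-1.25), SAMD9 (-1.16), IFIT2 (-1.05), UBE2L6 (-0.92), BST2 (-0.86), PARP9 (-0.84), IFIT3 (-0.78), EIF2AK2 (-0.78), ISG15 (-0.70), IFI44 (-0.65), IFITM3 (-0.64), PARP14 (-0.54), OAS3 (-0.50), PARP12 (-0.49), STAT2 (-0.47), DTX3L (-0.40) and ADAR (-0.40). For the PROTAC the change was larger in MDA-MB-436 for IRF7 (1.28), IRF1 (0.74), ISG20 (0.57) and TRIM25 (0.30). It was smaller for SAMD9 (-1.43), IFIT2 (-1.33), PARP9 (-1.30), IFIT1 (-1.24), OASL (-1.004), IFI6 (-0.97), UBE2L6 (-0.79), EIF2AK2 (-0.72), OAS3 (-0.72), IFIT3 (-0.71), BST2 (-0.63), ADAR (-0.61), DTX3L (-0.51), PARP14 (-0.50), IFIT5 (-0.46), STAT2 (-0.45) and GBP1 (-0.28). These are 3 and 18 members for the shRNA and 4 and 17 for the PROTAC, of the 45 tested in both lines.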

How the results depend on the processing

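No called change reversed under an alternative run. Of the changes that did not pass, 19 turned sign without scaling, among them DTX3L in MDA-MB-436, from -0.01 to 0.167 for the shRNA and from -0.08 to 0.0826 for the PROTAC. Library totals without scaling moved the counts in MDA-MB-436, to 22 rises and 3 falls for the shRNA (adding IFI6, IFIT2, IRF9, ISG15, PARP14, SP100, STAT2 and TRIM25 as rises) and 19 rises and 4 falls for the PROTAC (adding GBP1, IFI27, IFI35, IFIT2, OAS3, PARP14 and TRIM25). Of all genes called in MDA-MB-436 without scaling, 72.8% and 70.9% were higher. With 1 fit of all 24 libraries, 1 member fell under the PROTAC in MDA-MB-231: CMPK2 (log2 change -4.54, adjusted p = 0.0225), which had 8 counts over the DMSO libraries and 0 over the PROTAC libraries and is left out of the line's own test. Members with a larger PROTAC change in MDA-MB-436 went from 4 to 2 at an adjusted p under 0.01 and to 2 with no filter. The cause was not tested.

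Leaving out 1 library at a time gave 24 to 29 rises and 0 falls for the shRNA and 25 to 28 rises and 0 falls for the PROTAC in MDA-MB-231. The same in MDA-MB-436 gave 11 to 13 rises and 4 to 7 falls, and 11 to 14 rises and 5 to 9 falls. Line differences ran from 2 to 4 higher and 17 to 19 lower for the shRNA, and from 2 to 4 higher and 15 to 20 lower for the PROTAC. Starting levels gave 26 to 27 members higher and 13 to 14 lower. The PROTAC change minus the shRNA change called 0 members each time. Of the calls, 23 of 28, 24 of 30, 15 of 20 and 16 of 19 passed without each of the libraries in turn. Without MDA-MB-436 PROTAC library 3, which has the fewest counts, 14 members rose and 9 fell there. A left-out library leaves 2 in its group, and the fit then takes its spread from the other groups too.

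With the replicate number as a block, 27, 29, 14 and 11 members rose and 0, 0, 6 and 7 fell; line differences were 3 and 18 for the shRNA and 4 and 16 for the PROTAC, and starting levels 23 and 12. The numbers did not pair the libraries: same-numbered libraries deviated together with correlations of -0.03 to 0.04, and not every library correlated best with its own number. Calls lost with no filter on low counts were ADAR and SP110 for the shRNA in MDA-MB-231, DHX58, ISG20 and SP110 for the PROTAC there, GBP1, OAS3 and PARP9 for the shRNA in MDA-MB-436, and IFIT5 and ISG15 for the PROTAC there. Depth limits the low members: 10 failed the filter in 1 line.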
